A study of Mus musculus with 4 samples.

Results

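The genes described here are zinc transporters and metallothioneins, read in RNA-seq libraries of cortical astrocytes from mice with intact floxed Ezh2 and mice with Ezh2 deleted through an astrocyte Cre. Ezh2 is the Polycomb methyltransferase that places the repressive mark H3K27me3. Members were chosen by symbol: the zinc exporters Slc30a1, Slc30a3, Slc30a4, Slc30a9 and Slc30a10, the zinc importers Slc39a6 and Slc39a10, and the metallothioneins Mt1, Mt2 and Mt3. Of these 10 genes, 9 have a row in the tables of 29224 genes, and all 9 passed the filter on low counts, which left 16793 genes. Mt2 was not analysed here.

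Astrocytes were taken from the cerebral cortex at postnatal day 5 with magnetic beads against ACSA-1 (GLAST), a glutamate transporter of the astrocyte surface. Both groups carry floxed Ezh2 alleles. The 2 Ezh2 f/f libraries are the controls, and the 2 Ezh2 cKO libraries come from mice that also carry Cre recombinase under the promoter of Aldh1l1, an astrocyte gene, so that the deletion is directed to cells that use this promoter and not to other cells a preparation may hold. The labels do not state the sex or strain of the mice, whether animals were pooled, or whether the libraries of a group came from separate animals, so p-values measure only the spread between these libraries, which may be technical.

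Zinc is moved across membranes by a pair of protein families: Slc30a (ZnT) transporters take it out of the cytosol, to the outside or into vesicles and organelles, and Slc39a (ZIP) transporters bring it into the cytosol. Metallothioneins are small cysteine-rich proteins that bind zinc and copper, and in brain tissue Mt1 and Mt2 are known mainly from glia. The transcription factor Mtf1 senses free zinc and binds metal response elements in the promoters of Mt1, Mt2 and Slc30a1. In the cortex a pool of zinc is also held in the synaptic vesicles of glutamatergic neurons, where Slc30a3 (ZnT3) loads it.

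Libraries held between 16273308 and 17522152 counts. The upper 95% confidence limit for a gene read at 0 is about 3 reads, which equal 0.171 to 0.184 CPM (counts scaled to library size). This limit covers counting error only. Ezh2 itself, the targeted gene, gave 434 and 327 reads in the controls and 211 and 164 after deletion, and its log2 fold change, Ezh2 cKO over control here and below, was -1.11 (SE 0.16, adjusted p = 3.26e-05, edgeR quasi-likelihood test), so its transcript was lower but still counted. Marker lists of 8 genes each differed between the groups, those of cell types other than astrocytes included. Astrocyte markers summed to 77.1 and 79.1 FPKM (counts scaled to gene length and library size) in the controls and to 341 and 316 in Ezh2 cKO, with 7 of 8 higher, although Aldh1l1 was not called. Of the pan-neuronal markers 7 rose and 1 fell, and their sum of 2176 and 2245 against 1873 and 1880 FPKM was mostly that of Tubb3, the 1 that fell. Without Tubb3 the sum was 317 and 347 against 650 and 673 FPKM, still above the astrocyte sum of the same library. Levels given below are those of whole preparations and not of astrocytes alone. Oligodendrocyte-lineage markers were higher for 8 of 8 genes (57.1 and 56.9 against 222 and 195 FPKM), and so were microglial markers (27.8 and 29.1 against 96.7 and 88.4 FPKM). Neural progenitor markers were lower for 7 of 8 genes (112 and 109 against 43.8 and 40.5 FPKM). All 6 tested ependymal and choroid plexus markers were lower (321 and 625 against 6.93 and 6.91 FPKM), and without Ttr, which gave 304 and 601 FPKM of the control sums, the list had 17.1 and 23.7 against 6.68 and 6.30 FPKM. Of the endothelial markers 3 rose and 1 fell (104 and 98.6 against 116 and 101 FPKM), and of the mural and meningeal markers 3 rose and 2 fell (55.3 and 49.9 against 81.7 and 75.6 FPKM). No marker of these lists was at 0 in every library, and the part of these cell types in the values of zinc genes was not tested.

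Among the 9 zinc transporters and metallothioneins, 4 rose in Ezh2 cKO (Slc30a3, Slc30a9, Slc39a10 and Mt3), 4 fell (Slc30a1, Slc30a4, Slc39a6 and Mt1) and Slc30a10 was not called (threshold of 0.05 on the adjusted p). Across the whole table, 34.7% were called higher and 33.6% lower, so the count of members called in either direction was near the background of this table. At least 2-fold changes were found for Slc30a3, Slc39a10 and Mt3, 3 of 9 members, beside 33.0% of all genes, and all 3 of them were increases. The median log2 fold change was -0.10 over the members and 0.02 over all genes tested. In CPM, the libraries of the groups did not overlap for any of the 9 members, which was also so for 84.3% of all genes tested and is not a result about the members. Those of Slc30a10 lay next to each other in CPM (38.9 and 43.7 against 38.8 and 38.0) and overlapped in FPKM. With 2 libraries per group the smallest 2-sided p of an exact permutation test on a single gene is 0.333, so the p-values come from the model fitted across all genes.

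**Figure D1:**
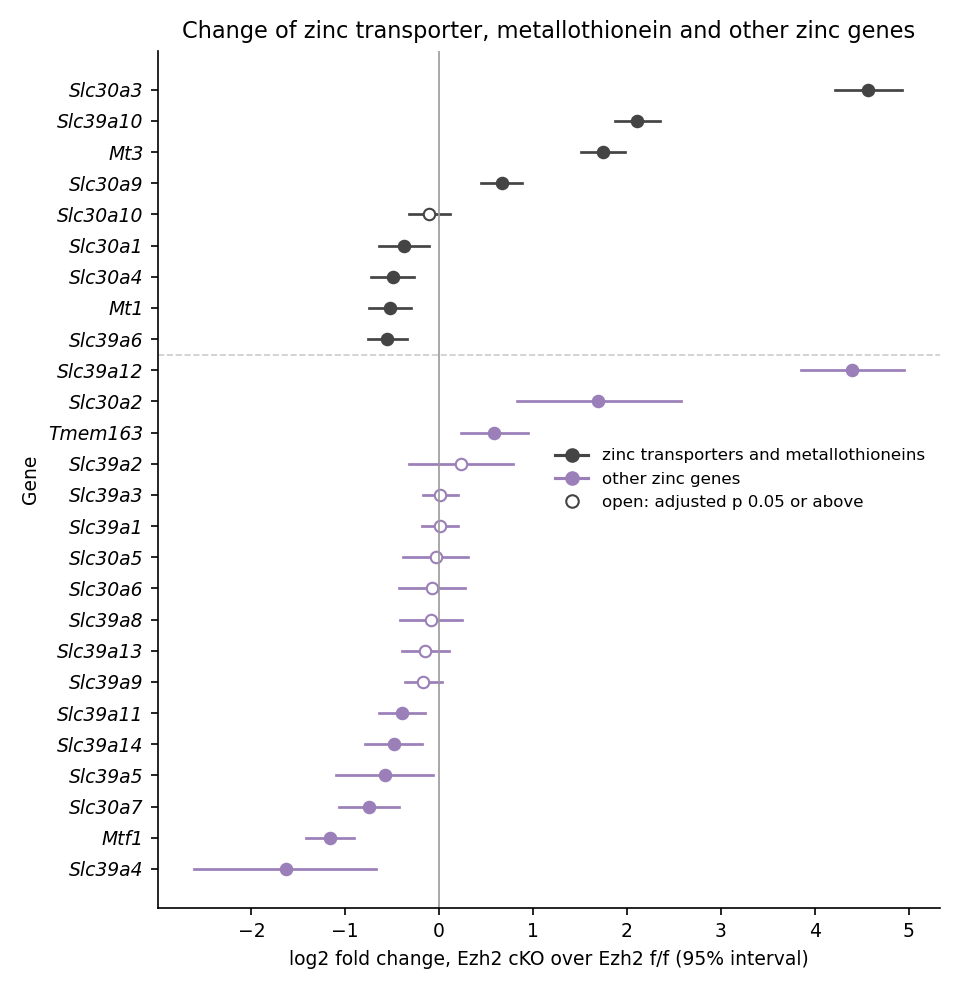
Log2 fold change of Ezh2 cKO over Ezh2 f/f (horizontal axis) for each member and each tested gene of the other zinc genes list, with 95% confidence intervals as bars and open points for genes that were not called. Slc30a3 (4.57) and Slc39a12 (4.39) stand farthest to the right, while the genes that fell lie between -0.38 and -1.63.

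Slc30a3, the transporter that fills synaptic vesicles with zinc, showed the largest change of the members. It was counted 57 and 92 times in the controls and 2001 and 1788 times in Ezh2 cKO, or 1.15 and 1.99 FPKM against 40.7 and 37.8 FPKM. The control libraries were low and the Ezh2 cKO libraries high, with a wide gap between them. The log2 fold change was 4.57 (SE 0.17, 95% CI 4.21 to 4.93, adjusted p = 1.07e-10), a 23.7-fold increase with an interval of 18.5 to 30.5, and 63 of the 16793 genes tested rose by more. By mean FPKM the gene went from rank 11122 in Ezh2 f/f to rank 1408 in Ezh2 cKO. The controls themselves differed, and the log2 value was 4.21 when replicate 1 of the controls was left out and 5.0 when replicate 2 was. Slc17a7 (VGLUT1), the vesicular glutamate transporter found on the same vesicles, gave 2293 and 1817 reads in the controls and 24670 and 22655 after deletion (log2 fold change 3.44). The ratio of the FPKM of Slc30a3 to that of Slc17a7 was 0.0473 and 0.0963 in the controls and 0.154 and 0.150 in Ezh2 cKO, so it was higher in both Ezh2 cKO libraries than in either control. Of 8 excitatory neuron markers, 3 rose (Slc17a7, Camk2a and Nrgn) and 3 fell (Neurod2, Neurod6 and Tbr1), and their summed level went from 483 and 426 FPKM to 2080 and 1985 FPKM, or without Nrgn, the most abundant, from 320 and 288 to 674 and 646 FPKM. Why markers of this list moved in both directions was not tested. A change in how many neurons a preparation holds and in how much RNA each neuron gives cannot be told apart in bulk libraries. The gene lies on the minus strand at chr5:31243450-31265581 (ENSMUSG00000029151) in the deposited coordinates and overlaps the unclassified gene Gm9924 on the other strand. Since the processing notes do not state whether the counting used strand, reads of that overlap could belong to either.

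The other exporters changed by less. Slc30a9, which takes zinc out of mitochondria, had control counts of 1084 and 1108 and Ezh2 cKO counts of 1758 and 1953 (chr5:67464298-67515786, plus strand, ENSMUSG00000029221), a 1.59-fold increase (log2 0.67, SE 0.10, adjusted p = 5.23e-05). Slc30a4, an exporter of endosomes and vesicles, had 836 and 703 counts against 553 and 609 (chr2:122523153-122544583, minus strand, ENSMUSG00000005802), and the log2 fold change was -0.49 (SE 0.11, adjusted p = 9.07e-04). Slc30a1, the exporter of the plasma membrane, had 509 and 435 counts against 364 and 410 (chr1:191638879-191645359, plus strand, ENSMUSG00000037434). Its log2 fold change of -0.38 (SE 0.12, 95% CI -0.64 to -0.11, adjusted p = 0.0154) was the least firm of the called members, and without Ezh2 cKO replicate 1 it was -0.28 with an adjusted p of 0.151. The gene shares 761 bases with the long non-coding RNA 1700034H15Rik on the other strand, which had 19 to 46 counts. Slc30a10, which exports manganese, had 665 and 686 counts against 684 and 659 (chr1:185187045-185200959, plus strand, ENSMUSG00000026614). Its log2 fold change was -0.10 (SE 0.10, adjusted p = 0.388), and the interval of 0.798-fold to 1.09-fold bounds any difference at this depth. It shares 721 bases with Gm2061 on the other strand (119 to 202 counts).

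The importers Slc39a6 and Slc39a10, both of the LIV-1 subfamily of ZIP proteins, moved in opposite directions. Slc39a10 was at 255 and 273 counts in the controls and at 1217 and 1220 in Ezh2 cKO (chr1:46846704-46932012, minus strand, ENSMUSG00000025986), a 4.32-fold increase (interval 3.67 to 5.09, log2 2.11, SE 0.11, adjusted p = 1.57e-09). Slc39a6 (ENSMUSG00000024270) had 1433 and 1357 counts against 978 and 1050, with a log2 fold change of -0.55 (SE 0.10, adjusted p = 1.48e-04). In both cases the replicates lay close together and apart from the other group. Slc39a6 shares 952 bases with Elp2 on the other strand, a gene of 1713 to 2605 counts, and is therefore less certain where the counting ignored strand. Slc39a10 overlaps Gm28151 on the same strand, which had 25 to 36 counts.

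The metallothioneins also moved apart. Mt3, the brain-enriched metallothionein known as growth inhibitory factor, was at 477 and 504 counts in the controls and at 1882 and 1630 in Ezh2 cKO (ENSMUSG00000031760, chr8:94879235-94880774, plus strand), or 25.5 and 29.1 FPKM against 102 and 91.7 FPKM. It was the second most abundant member in the controls and the most abundant in Ezh2 cKO, at rank 2128 and rank 512 of all genes by mean FPKM. The log2 fold change was 1.74 (SE 0.11, 95% CI 1.51 to 1.98, adjusted p = 7.72e-09), or 3.35-fold with an interval of 2.85 to 3.93. Mt1, the metallothionein that metals and glucocorticoids induce, had 1263 and 1199 counts against 1008 and 817 (ENSMUSG00000031765, chr8:94905710-94906955, plus strand), or 57.8 and 59.1 FPKM against 46.7 and 39.3 FPKM. Mt1 fell by 0.53 on the log2 scale (SE 0.10, 95% CI of the change -0.75 to -0.30, adjusted p = 4.93e-04). Mt1 is uncertain in one respect, since Mt2 was not analysed here and the sequences of the family are alike, so that reads could have been split between them. The sums of astrocyte, oligodendrocyte-lineage, microglial, excitatory neuron, and mural and meningeal markers were all higher in Ezh2 cKO, as Mt3 was. The pan-neuronal sum was higher only without Tubb3, and those of neural progenitor and of ependymal and choroid plexus markers were lower. Endothelial sums overlapped between the groups. The part of these cell types in the values of Mt3 and Mt1 was not tested. Summed over both genes, the level was 83.4 and 88.2 FPKM in the controls and 149 and 131 FPKM in Ezh2 cKO, and Mt3 made up 30.6% and 32.9% of it in the controls and 68.6% and 70.0% in Ezh2 cKO. The ratio of Mt3 to Mt1 was 0.441 and 0.491 in the controls and 2.18 and 2.33 in Ezh2 cKO. Each of these shares lay well outside the range of the other group.

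**Figure D2:**
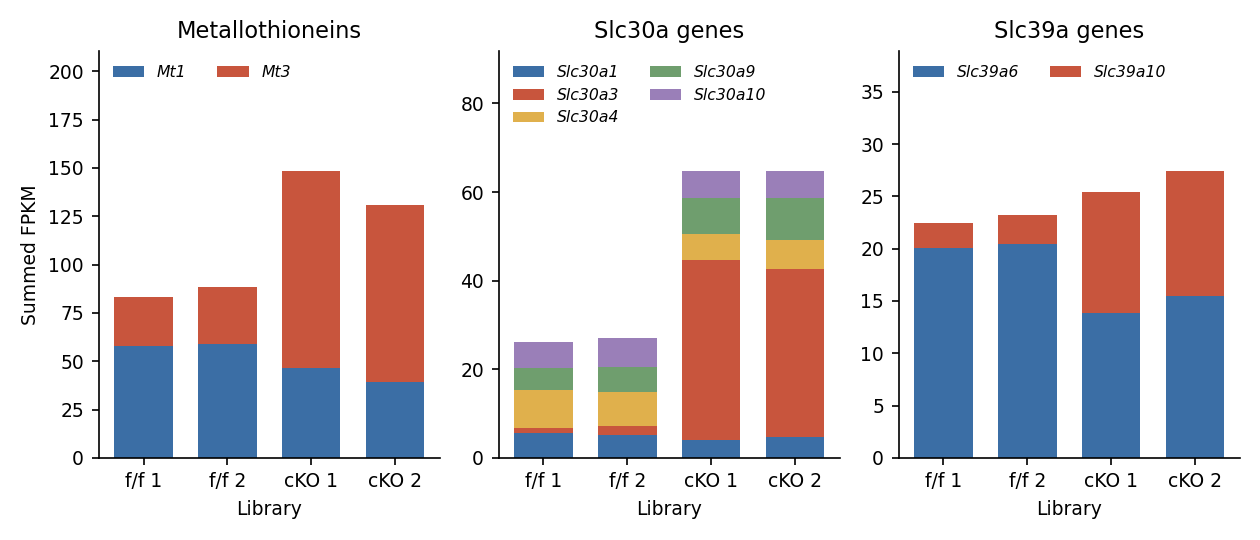
Summed FPKM (vertical axis) of the metallothioneins, the 5 Slc30a members and the 2 Slc39a members in each library, with each colour of a stacked bar standing for 1 gene. Mt3, Slc30a3 and Slc39a10 take a larger share of the bar in both Ezh2 cKO libraries, up to 62.8% for Slc30a3.

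As a group, exporter transcript rose mainly through 1 gene. The 5 Slc30a members summed to 26.2 and 27.0 FPKM in the controls and to 64.8 and 64.7 FPKM in Ezh2 cKO, and Slc30a3 took 4.38% and 7.40% of the sum in the controls and 62.8% and 58.5% in Ezh2 cKO. The 2 Slc39a members summed to 22.5 and 23.2 FPKM against 25.4 and 27.5 FPKM, and Slc39a10 took 10.6% and 11.9% against 45.4% and 43.7%. Sums of FPKM are given as descriptions, without a test.

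On the FPKM scale, which is per length, the order of the members in the controls was Mt1 (58.5 ± 0.907, SD, n = 2), Mt3 (27.3 ± 2.49), Slc39a6 (20.3 ± 0.279), Slc30a4 (8.29 ± 0.582), Slc30a10 (6.15 ± 0.457), Slc30a1 (5.32 ± 0.313), Slc30a9 (5.25 ± 0.356), Slc39a10 (2.57 ± 0.258) and Slc30a3 (1.57 ± 0.599). Values of Slc30a1 and Slc30a9 overlapped between libraries, so their order is not resolved. In Ezh2 cKO the order became Mt3 (96.8 ± 7.21), Mt1 (43.0 ± 5.21), Slc30a3 (39.3 ± 2.06), Slc39a6 (14.7 ± 1.13), Slc39a10 (11.8 ± 0.339), Slc30a9 (8.83 ± 0.895), Slc30a4 (6.24 ± 0.594), Slc30a10 (6.07 ± 0.00476) and Slc30a1 (4.35 ± 0.483). There Mt1 overlapped with Slc30a3, and Slc30a4 with Slc30a10. Slc30a3 moved from the last place to the third.

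**Figure D3:**
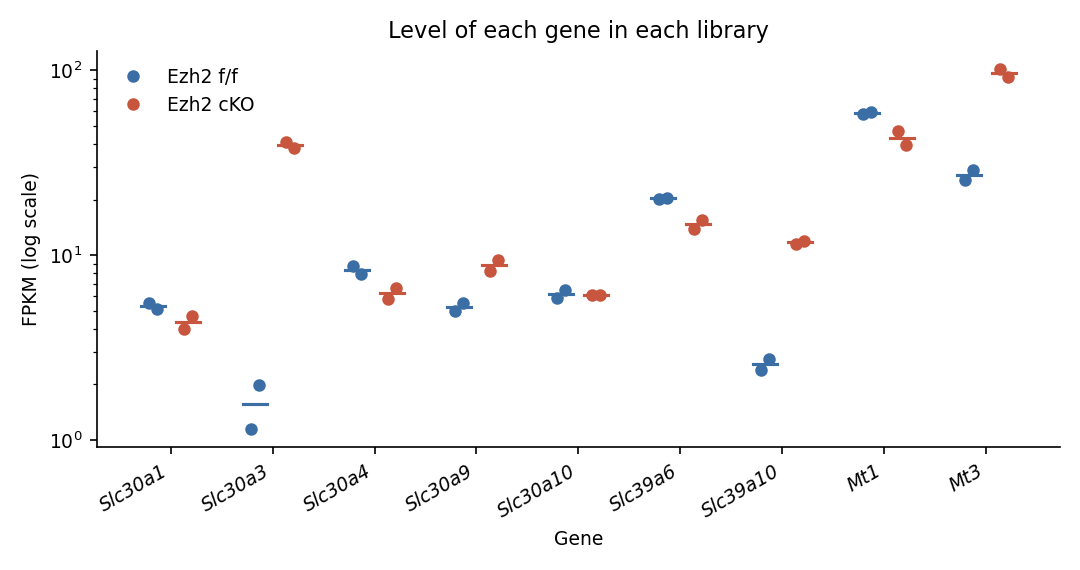
FPKM of each member (vertical axis, log scale) in the 2 Ezh2 f/f and the 2 Ezh2 cKO libraries, with 1 point per library and a line at the group mean. Slc30a3, Slc39a10 and Mt3 show the widest gaps between groups.

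The metallothionein genes lie in 1 cluster. In the deposited coordinates the starts of Mt3 and Mt1 are 26475 bases apart, and Mt4, which is known from stratified epithelia, had 1, 0, 1 and 0 counts and was too low to test. Within 200000 bases to each side of the start of Mt3 there are 16 genes, of which 11 were tested. Apart from Mt1 and Mt3, 4 of them rose and 5 fell, beside 34.7% of all genes called higher and 33.6% lower. The nearest tested gene before the cluster, Bbs2, rose by 0.48 on the log2 scale (adjusted p = 0.0102), and the neighbour after it, Nup93, fell by 1.00 (adjusted p = 8.26e-07). The width of this neighbourhood was chosen after the values of Mt1 and Mt3 were seen.

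**Figure D4:**
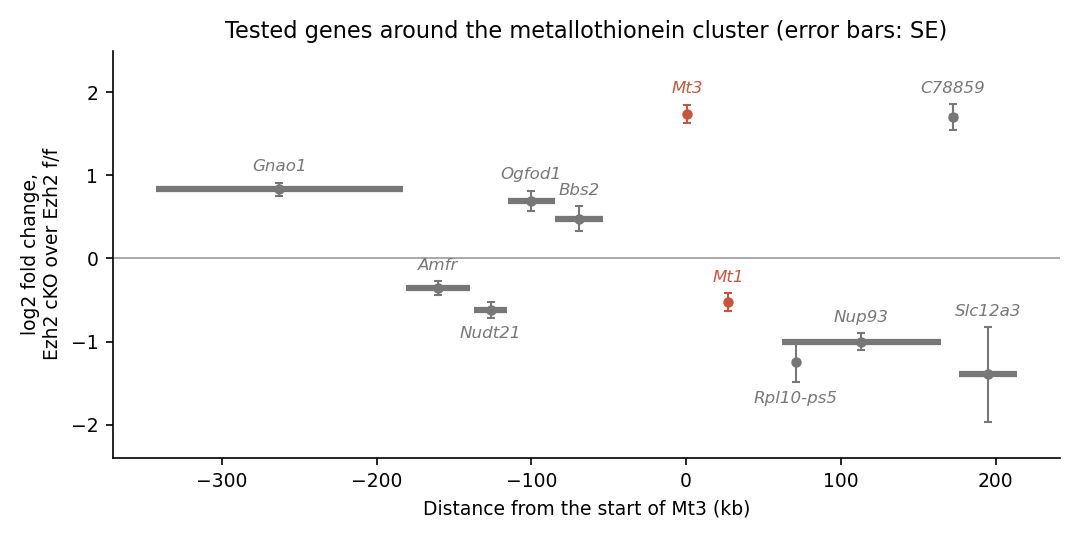
Log2 fold change of Ezh2 cKO over Ezh2 f/f with its standard error (vertical axis) for tested genes around the metallothionein genes, by distance from the start of Mt3 (horizontal axis, kilobases), with a thick line over the length of each gene. Mt3 (1.74) lies above and Mt1 (-0.53) below 0, and genes on either side of them went both ways.

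Promoters are shown for 2 members that fell, Mt1 and Slc30a1, and for 2 that rose, Mt3 and Slc30a3. Mt1 and Slc30a1 are textbook targets of Mtf1. The part of Mtf1 or of its sites in the changes of these genes was not tested. Each window is from RefSeq on GRCm38.p6, runs from 250 bases before to 50 bases after the annotated start, and is written along the gene's strand. The window of Mt1 is chr8:94178839-94179138 (plus), that of Slc30a1 chr1:191906531-191906830 (plus), that of Mt3 chr8:94152357-94152656 (plus) and that of the upstream start of Slc30a3 chr5:31108195-31108494 (minus). Capitals mark the core of the metal response element, searched as TGCACNC or TGCGCNC on both strands.
Mt1: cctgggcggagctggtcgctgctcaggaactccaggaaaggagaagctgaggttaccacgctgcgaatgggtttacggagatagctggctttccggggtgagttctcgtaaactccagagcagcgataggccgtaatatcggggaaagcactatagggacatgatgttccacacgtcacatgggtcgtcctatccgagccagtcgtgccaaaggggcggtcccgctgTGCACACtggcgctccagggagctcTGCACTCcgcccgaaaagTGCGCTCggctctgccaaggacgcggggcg
Slc30a1: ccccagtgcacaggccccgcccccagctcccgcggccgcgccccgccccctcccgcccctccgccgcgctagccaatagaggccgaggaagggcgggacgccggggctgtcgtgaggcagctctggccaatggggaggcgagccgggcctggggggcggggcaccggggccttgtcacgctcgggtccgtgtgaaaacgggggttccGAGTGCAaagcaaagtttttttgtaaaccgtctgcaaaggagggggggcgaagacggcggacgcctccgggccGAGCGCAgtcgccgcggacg
Mt3: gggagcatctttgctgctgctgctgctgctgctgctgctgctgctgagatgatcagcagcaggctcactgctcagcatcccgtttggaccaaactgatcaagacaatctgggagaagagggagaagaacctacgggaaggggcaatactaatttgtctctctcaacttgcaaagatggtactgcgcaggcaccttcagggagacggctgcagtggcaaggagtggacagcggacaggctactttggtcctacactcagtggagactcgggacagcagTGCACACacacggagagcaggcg
Slc30a3: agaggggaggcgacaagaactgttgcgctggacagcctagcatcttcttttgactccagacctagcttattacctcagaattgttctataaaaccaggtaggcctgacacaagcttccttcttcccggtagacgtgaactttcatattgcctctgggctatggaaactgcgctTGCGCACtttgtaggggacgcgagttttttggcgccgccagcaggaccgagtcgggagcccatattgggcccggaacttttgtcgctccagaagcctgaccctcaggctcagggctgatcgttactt
Mt1 held 3 matches, at 23 bases before the start set in its window and at 2 and 20 bases after it. RefSeq also gives the Mt1 gene a start of 94178883, so these positions hold for the start of this window only. Slc30a1 held 2. Mt3 and Slc30a3 held 1 each. Of 32851 windows of 300 bases in this table, 25.7% held at least 1 match, 7.11% at least 2 and 1.97% at least 3. A match is a description of the letters and not a site. The windows of Slc30a4 and Slc30a10 held 3 matches each, 2 of those of Slc30a10 being 1 palindrome read on both strands, while the second window of Slc30a3, that of Slc30a9 and both windows of Slc39a10 held none. Windows of 8 members (10 windows) were used, and no window of Slc39a6, which fell, is reported here. The window of Mt3 had a lower CpG ratio (observed over expected 0.345) than that of Mt1 (0.878), Slc30a1 (0.904) or the upstream start of Slc30a3 (0.703), against a median of 0.384 over all windows.

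The other zinc genes, 21 further transporters, zinc-binding proteins and regulators, are listed for comparison with the members. Of these, 17 were tested, 3 rose, 6 fell and 8 were not called, against 34.7% of all genes higher and 33.6% lower. Their median log2 fold change was -0.09, and their summed level was 110 FPKM in both controls and 116 and 118 FPKM in Ezh2 cKO.

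Slc39a12, a zinc importer of the brain, was barely counted in the controls (10 and 19) and reached 320 and 336 counts in Ezh2 cKO (log2 fold change 4.39, SE 0.26, adjusted p = 4.12e-09). Slc30a2, a vesicular exporter, rose from 10 and 13 counts to 50 and 30 (log2 1.69, SE 0.41, adjusted p = 0.00203). Tmem163, a zinc-binding protein of synaptic vesicles, had 356 and 528 counts against 741 and 685 (log2 0.59, SE 0.17, adjusted p = 0.00618). Its call depended on single libraries, and the log2 value was 0.28 when replicate 1 of the controls was left out (adjusted p = 0.0596) and 0.95 when replicate 2 was. Tmem163 also lost its call without either Ezh2 cKO library, and Slc30a2 lost it without Ezh2 cKO replicate 1 (log2 1.29, adjusted p = 0.0729). Slc30a2, at 0.160 and 0.224 FPKM in the controls, was a low transcript throughout.

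Mtf1, the metal-responsive transcription factor, was at 828 and 644 counts in the controls and at 348 and 350 in Ezh2 cKO (log2 fold change -1.16, SE 0.12, adjusted p = 9.50e-07). Slc30a7, an exporter of the Golgi, fell from 457 and 391 counts to 236 and 302 (log2 -0.75, SE 0.15, adjusted p = 4.62e-04). With limma on log2(FPKM + 1) without a filter Slc30a7 lost its call (adjusted p = 0.0802). Slc39a11 fell by 0.40 on the log2 scale (adjusted p = 0.00716), Slc39a14, which also carries iron and manganese, by 0.49 (adjusted p = 0.00727), and the intestinal importer Slc39a4 by 1.63 from 22 counts in each control to 7 and 8 (adjusted p = 0.00506). Slc39a5, with 105 and 85 counts against 57 and 78 (adjusted p = 0.0430), lies whole within Ankrd52 on the other strand and lost its call in 9 of 13 alternatives. Slc39a11, which overlaps Sstr2 and Cog1 on the other strand, lost its call without Ezh2 cKO replicate 2 (adjusted p = 0.0569), as did Slc39a14 (adjusted p = 0.101), and Slc39a4 lost it without Ezh2 cKO replicate 1 (adjusted p = 0.0659) and with DESeq2 (adjusted p = 0.0621). Slc39a14 also lost its call with limma on log2(FPKM + 1), on log2(FPKM + 0.1) and without a filter (adjusted p = 0.0866, 0.0931 and 0.179). Slc39a3, the most abundant of the list, had 34.2 FPKM in the controls and 36.6 in Ezh2 cKO on average, with a log2 fold change of 0.01. Slc30a8, Slc39a7, Mt4 and Gpr39, the zinc-sensing receptor, had at most 7 counts in any library and were not tested.

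The AP-3 complex, the adaptor that sorts Slc30a3 to synaptic vesicles, was examined beside its cargo. Of its 7 subunit genes, 5 rose and 1 fell, with a median log2 fold change of 0.48, beside 34.7% of all genes higher. Ap3b2, the neuronal beta subunit, rose by 1.28 (adjusted p = 2.32e-08), Ap3m1 by 0.75 (adjusted p = 5.20e-05) and the neuronal subunit Ap3m2 by 0.48 (adjusted p = 4.61e-04) on the log2 scale, and Ap3s2 fell by 0.37 (adjusted p = 0.00307). These changes were far smaller than that of Slc30a3.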

How the data were processed

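RNA was sequenced on an Illumina HiSeq 2500 from 2 Ezh2 f/f and 2 Ezh2 cKO preparations. The authors deposited raw read counts per gene and FPKM values, which scale counts to gene length and library size. The deposited table also holds the authors' own comparison (a mean signal, a ratio, its log2 value and p-values), which was not used. The submitters' processing notes name Bowtie2 2.2.3, TopHat2 2.0.12, HTSeq 0.6.0 and the build mm9. Gene starts of the 9 members differ from GRCm38 by 39160 to 726827 bases, and coordinates are printed as deposited. They were not compared with mm9, so the printed positions should not be taken as mm9 and their build is not established here. Use of strand is not given in the sources used here. Every sample column was used (0 of other samples).

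Counts were filtered with filterByExpr, normalized by TMM and tested with edgeR 4.0.16 (quasi-likelihood, group as the only term, Benjamini-Hochberg adjustment over 16793 genes, threshold 0.05) in R 4.3.3. Ratios have Ezh2 f/f as the denominator. FPKM served for levels. Counts of replicates varied beyond counting noise, with a chi-square per degree of freedom of 8.92 in the controls and 5.68 in Ezh2 cKO. On simulated data with 200 genes changed 4-fold, edgeR recovered 200 of them over 16562 genes, with 6 false calls. Smaller changes were not simulated. In the real data 33.0% of genes tested were called and at least 2-fold, so the number of false calls may not carry over. Alternatives were DESeq2 1.42.0, limma 3.58.1 on log2(FPKM + 1) and log2(FPKM + 0.1), other filters, library size alone, a replicate block and each library left out. Tables were made with Python 3.11.15 and pandas 2.3.3. Promoters come from RefSeq. The members and lists were chosen with earlier results of these data known. Named were all members, Ezh2, the called other zinc genes and, for the AP-3, stress and copper and iron lists, up to 3 genes called in each direction with the smallest p. Slc17a7, Bbs2, Nup93, Slc39a3 and the marker genes were named after their values were seen.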

Additional observations from a re-analysis of the deposited data

How the results depend on the processing

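Over 13 alternatives, 241 single-gene values of 19 genes were recomputed: 212 kept their side of the threshold, 29 lost the call and 0 reversed. The number of members higher was 4 in every alternative, and leaving out each library gave 4 to 4. With every library kept, the number of members lower was mostly 4. It was 2 with limma on log2(FPKM + 1) without a filter, and 3 with both filtered limma fits and library size alone. Again with every library kept, other zinc genes higher mostly numbered 3. They numbered 1 with that same unfiltered limma fit, and 2 with both filtered limma fits and with at least 50 counts on average. Both counts also fell when Ezh2 cKO replicate 1 was left out. That of other zinc genes higher fell too without Ezh2 f/f replicate 1 or Ezh2 cKO replicate 2. Other zinc genes lower numbered 6, 3 with limma on log2(FPKM + 1), on log2(FPKM + 0.1) and without a filter, 4 with DESeq2 and with at least 50 counts on average, 5 with library size alone and with no filter on counts, and 4 to 7 with each library left out. With at least 50 counts on average 15 other zinc genes were tested, and in both filtered limma fits 14. There Slc30a2 and Slc39a4 dropped out through the filter and not through a lost call. The cause of the remaining differences was not tested. With a library left out, the lone library of its group is assumed to vary like the other group. Slc30a1 lost its call under library size alone (adjusted p = 0.0571) and under limma (0.0855, 0.0841 and 0.150), and Slc30a4 under unfiltered limma (0.0534). Across alternatives Slc30a3 ranged from 3.99 to 5.0 and Slc39a10 from 1.84 to 2.21 (log2). Library size alone shifts the median of all genes to 0.10. Same-numbered libraries share only a number (correlation of their deviations 0.111), and the replicate block left the counts at 4, 4, 3 and 6. With 2 libraries per group, unusual libraries could not be tested for.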

Other observations

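Genes that handle copper and iron moved in both directions. Of 14 tested genes on this list, 5 rose, 3 fell and 6 were not called, beside 34.7% of all genes called higher and 33.6% lower, so these counts do not stand apart from the background. The median log2 fold change was 0.10. The transferrin receptor Tfrc rose by 1.65 on the log2 scale (adjusted p = 1.17e-08, edgeR), the iron exporter Slc40a1 by 1.75 (adjusted p = 8.21e-07) and the ferritin heavy chain Fth1 by 0.57 (adjusted p = 1.98e-05). The ferritin light chain Ftl1 fell by 0.77 (adjusted p = 1.19e-05), the divalent metal transporter Slc11a2 by 0.43 (adjusted p = 0.00105) and the copper and zinc superoxide dismutase Sod1 by 0.35 (adjusted p = 0.00248). Ferritin genes have many pseudogenes, so their counts are uncertain.

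Of 9 tested genes of metal and oxidative stress, 3 rose, 2 fell and 4 were not called, with a median log2 fold change of -0.14, beside 34.7% of all genes called higher and 33.6% lower, so neither count stands above the background. Srxn1, sulfiredoxin, rose by 2.06 on the log2 scale (adjusted p = 9.68e-09), the cystine transporter Slc7a11 by 0.56 (adjusted p = 0.00226) and the heat shock gene Hspa1a, which has a near-identical copy, by 1.24 (adjusted p = 0.0184). The heme oxygenase Hmox1 fell by 0.59 (adjusted p = 0.0169) and the thioredoxin reductase Txnrd1 by 0.75 (adjusted p = 7.94e-06).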
